A study of Homo sapiens with 9 samples.

Results

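RNA polymerase I (Pol I), RNA polymerase II (Pol II) and RNA polymerase III (Pol III) are built from the products of the POLR1, POLR2 and POLR3 genes, and the RNA levels of these genes were followed in HAP1 cells. The genes were chosen by symbol, as POLR1, POLR2 or POLR3 followed by a capital letter and optionally a further letter or number. Of 26485 gene models, 30 fitted, and the pseudogene POLR2J4 was left out. Grouped by symbol, with the known shared subunits set apart, 3 genes were counted to only Pol I and 2 to Pol I and Pol III. Of the rest, 10 were counted to only Pol II, 5 to all 3 enzymes and 10 to only Pol III. POLR2M is counted to only Pol II, although its protein binds Pol II and is not part of the core. Of the 30, 29 passed the filter on low counts and could be tested, and POLR2J2 did not.

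HAP1 is an adherent, near-haploid human cell line derived from a chronic myeloid leukaemia line, and all cells were labelled wild type, with no treatment named. Cells grown in IMDM with serum were sorted into lysis buffer as 1, 10, 100 or 1000 cells, and total RNA was isolated with NAxtra magnetic nanoparticles, treated with DNase and made into SMART-Seq Stranded libraries, which are amplified by PCR without molecular identifiers. There were 3 libraries of single cells and 2 each of 10, 100 and 1000 cells. The samples were labelled biological replicates without a statement that they came from separate cultures, so p-values measure the spread between these samples, which may be technical.

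The libraries held 42842970 to 61645865 counts assigned to genes. At least 1 count was found for 13968 to 14478 genes in single cells, 16283 and 16552 in 10 cells, 16474 and 18368 in 100 cells, and 18232 and 18634 in 1000 cells. By this measure 100 Cell Rep 1 lay with the 10-cell libraries and 100 Cell Rep 2 with the 1000-cell libraries. Of all 16184 genes kept over the 9 libraries, 38.2% lay in Single Cell Rep 3 more than 1 log2 unit away from the mean of the libraries of more cells, against 32.3% in Rep 1 and 32.2% in Rep 2. Of 8 blood cell markers, 7 stayed under 1 CPM (counts scaled to a common library size with TMM factors) in every library and 3 were at 0 throughout, and the 3 keratinocyte markers were at 0. The 5 fibroblast markers summed to 3.76 to 15.3 CPM in single cells and 8.79 to 17.0 CPM in the other libraries, nearly all from COL1A1.

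Each polymerase copies a different set of genes. Pol I makes the large ribosomal RNA precursor in the nucleolus, Pol II makes messenger RNA and many non-coding RNAs, and Pol III makes transfer RNA, the smallest ribosomal RNA and other short RNAs. In each enzyme the largest and second-largest subunits form the active site, and a pair of smaller subunits is the platform on which they assemble. A stalk binds the emerging RNA, and a set of small subunits is common to all. Pol I and Pol III carry in addition built-in subunits that resemble general transcription factors of Pol II.

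Levels between genes were compared as CPM per kilobase of exon. Every subunit gene except POLR2J2 and POLR2J3 had counts in every library, including each single cell, with 225 counts as the smallest. Together the 30 genes took 0.270%, 0.293% and 0.289% of counts in the 3 single cells, against 0.255% to 0.271% in the 6 libraries of more cells. The ranges of the single cells and the other libraries overlapped. In libraries of many cells, fewer cells that use a gene and less RNA per cell cannot be told apart.

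**Figure D1:**
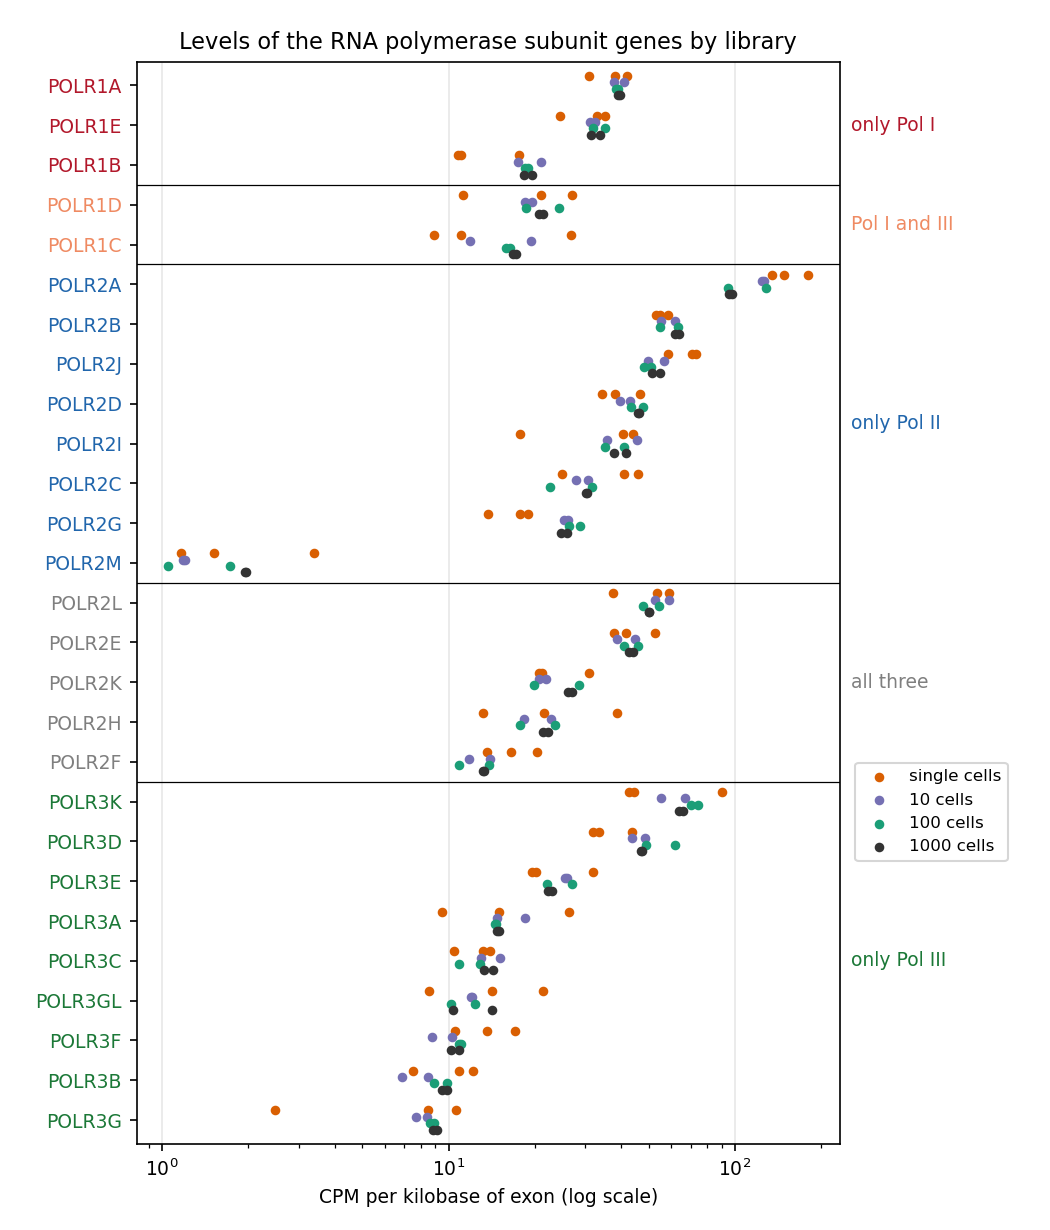
Level of 27 subunit genes in CPM per kilobase of exon (horizontal axis, log scale), with 1 point for each library, coloured by the number of cells. POLR2A is the highest at 94.5 to 179.8, POLR2M the lowest at 1.05 to 3.40, and POLR3G in Single Cell Rep 3 lies apart at 2.47. POLR2J2 and POLR2J3, which had 0 counts in some libraries, are not drawn.

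Median levels were compared between the enzymes over the genes that only 1 of them uses, and the place of only Pol II depended on which of its genes were taken. Over 7 genes of only Pol II (without POLR2J2, POLR2J3 and POLR2M, whose counts are uncertain), the median was 45.7, 46.5 and 40.9 CPM per kilobase in the single cells, against 39.6 to 47.6 CPM per kilobase in the other 6 libraries. POLR2J was kept among the 7, though part of its sequence is shared with other genes. Over the 3 genes of only Pol I it was 30.8, 24.5 and 33.0 CPM per kilobase in the single cells, against 31.2 to 35.2. Over the 10 genes of only Pol III it was 10.7, 16.1 and 19.6 CPM per kilobase in the single cells, against 12.1 to 13.8. With these 7 genes the order Pol II, Pol I, Pol III held in all 9 libraries. The medians leave out subunits listed under other symbols, the Pol I genes TWISTNB, CD3EAP and ZNRD1 and the Pol III gene CRCP. The 3 Pol I genes averaged 16.2, 20.4 and 1.92 CPM per kilobase in single cells, against 16.8, 33.1 and 1.90 in the other 6 libraries. The exon length of ZNRD1 in the files, 7025 bases, was not checked for overlaps or copies, so its level per length is uncertain. CRCP averaged 18.1 in single cells, against 15.8. With these subunits added, the median of only Pol I came under that of only Pol III in Single Cell Rep 3. With ZNRD1 left out again it stayed above. Over all 10 genes of only Pol II the median was 26.0 to 41.2 CPM per kilobase in the single cells, against 30.7 to 36.7 in the other libraries. It then lay under only Pol I in Single Cell Rep 3, 10 Cell Rep 1 and 100 Cell Rep 1, and above only Pol III in all 9 libraries. The shared subunits lay between only Pol II (7 genes) and only Pol III in 8 of 9 libraries, with medians of 10.1 to 24.0 CPM per kilobase in single cells against 15.7 to 20.1 for the 2 genes of Pol I and Pol III, and 20.7 to 38.8 in single cells against 19.8 to 28.5 for the 5 genes of all 3 enzymes. In Single Cell Rep 3 the 2 genes of Pol I and Pol III fell outside this order, with a median under that of only Pol III. These medians are over different genes and carry no test.

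**Figure D2:**
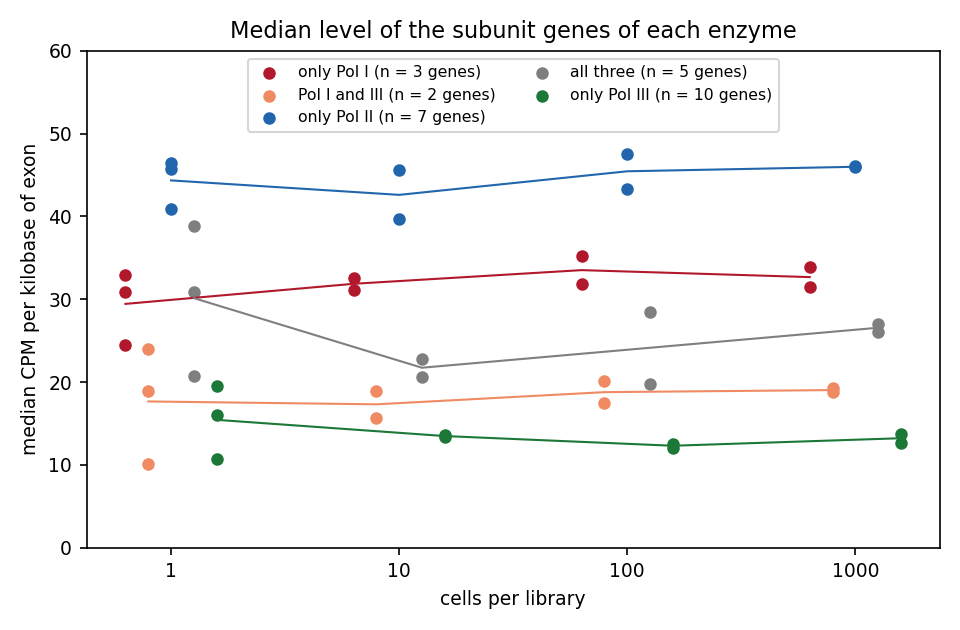
Median CPM per kilobase of exon over the subunit genes of each enzyme (vertical axis) by the number of cells per library (horizontal axis), with points for libraries and lines through their means; points are shifted sideways to keep them apart. For only Pol II, 7 of 10 genes are drawn, without POLR2J2, POLR2J3 and POLR2M. In every library their medians (39.6 to 47.6) lie above those of only Pol I (24.5 to 35.2), and these above those of only Pol III (10.7 to 19.6). Subunits listed under other symbols are not included.

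POLR1A encodes the largest subunit of Pol I. It had 205, 254 and 278 CPM in the single cells, against 251 and 273 CPM in 10 cells, 259.5 and 255 CPM in 100 cells, and 258 and 263 CPM in 1000 cells. Single Cell Rep 1 was under and Rep 3 above all 6 other libraries. POLR1B encodes the second-largest subunit. Per length it was the lowest of the genes of only Pol I chosen by symbol. It stood at 10.8 to 17.7 CPM per kilobase in single cells against 17.5 to 21.1. It had 97.2, 60.8 and 59.5 CPM in the single cells, against 96.2 and 116 CPM in 10 cells, 101 and 104 CPM in 100 cells, and 101 and 107 CPM in 1000 cells. Rep 2 and Rep 3 were under all other libraries, while Rep 1 was within them. POLR1E encodes a subunit of the built-in heterodimer that resembles Pol II initiation factors, and it had 68.9, 48.1 and 64.7 CPM in the single cells, against 61.1 to 69.1 CPM (median 63.2) in the 6 libraries of more cells.

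POLR1C and POLR1D encode the assembly platform that Pol I and Pol III share. POLR1C had 14.5, 35.5 and 11.7 CPM in the single cells, against 15.7 and 25.6 CPM in 10 cells, 21.6 and 21.0 CPM in 100 cells, and 22.1 and 22.7 CPM in 1000 cells. POLR1D had 81.3, 63.7 and 33.9 CPM in the single cells, against 58.8 and 56.0 CPM in 10 cells, 56.4 and 73.2 CPM in 100 cells, and 62.7 and 64.7 CPM in 1000 cells. Both partners were under all other libraries in Single Cell Rep 3, but in Rep 1 POLR1C was below and POLR1D above them.

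POLR2A encodes the largest subunit of Pol II, whose carboxy-terminal tail of repeats recruits RNA processing factors. On chromosome 17 of hg38 from 7484379 to 7514618, it was the highest of the 30 genes per length in every library. It had 906, 1212 and 1001 CPM in the single cells, against 839 and 852 CPM in 10 cells, 864 and 637 CPM in 100 cells, and 656 and 640.4 CPM in 1000 cells. All 3 single cells were above all 6 other libraries. Within those 6, the 10-cell libraries and 100 Cell Rep 1 were high and the other 3 libraries low, the same division as in the number of genes detected, whose part in the result was not tested. Per length, POLR2A stood at 4.36, 4.70 and 3.54 times POLR1A in the single cells, against 2.40 to 3.29 times in the other libraries. Against POLR3A it stood at 14.2, 12.0 and 5.64 times in the single cells and at 6.44 to 8.74 times in the other libraries.

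POLR2B encodes the second-largest subunit of Pol II. It had 246, 231 and 224 CPM in the single cells, against 232 and 261 CPM in 10 cells, 232 and 268 CPM in 100 cells, and 261 and 268 CPM in 1000 cells. Its single-cell values were the closest together of the 29 subunit genes tested, with an SD of 0.0702 on the log2 scale. POLR2B did not move with its partner POLR2A in the single cells, where Rep 2 and Rep 3 lay just under the other libraries.

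The smaller subunits of only Pol II are the platform pair POLR2C and POLR2J, the stalk pair POLR2D and POLR2G, and POLR2I, which takes part in start site choice and proofreading. POLR2G had 15.8, 14.9 and 11.5 CPM in the single cells, against 21.9 and 21.2 CPM in 10 cells, 22.0 and 24.0 CPM in 100 cells, and 20.6 and 21.6 CPM in 1000 cells. All 3 single cells were under the other 6 libraries. Its stalk partner POLR2D had 88.8, 108 and 79.6 CPM in the single cells, against 92.1 to 111 CPM (median 104) in the other libraries, so that the groups overlapped. POLR2C had 82.4, 45.1 and 73.8 CPM in the single cells, against 40.9 to 57.2 CPM (median 54.7). POLR2I had 38.5, 35.3 and 15.5 CPM in the single cells, against 30.6 to 39.7 CPM (median 34.3), and only Single Cell Rep 3 was outside that range. POLR2M encodes a protein that binds Pol II and is not part of its core. It had 6.55, 5.02 and 14.6 CPM in the single cells, against 4.53 to 8.48 CPM (median 6.31), but 89.9% of its exon bases lie in another gene model, GCOM1, and reads over both models were left out of the counts, so its level is uncertain.

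POLR2J, POLR2J2 and POLR2J3 lie on the minus strand of chromosome 7 (GRCh38) and share part of their sequence. Reads that map to more than 1 place were left out of the counts. The following stretches of 50 coding bases, read from GENCODE 29 transcripts, show where a read of that length can and cannot be told apart. Coding bases 1 to 50 are the same in POLR2J (chr7:102478811-102478860), POLR2J2 (chr7:102671552-102671601) and POLR2J3 (chr7:102572472-102572521) and are printed once. Coding bases 51 to 100 come from chr7:102476221-102476270 in POLR2J, chr7:102668955-102669004 in POLR2J2 and chr7:102569875-102569924 in POLR2J3. Capitals mark bases that differ from POLR2J.
All 3 genes, bases 1 to 50: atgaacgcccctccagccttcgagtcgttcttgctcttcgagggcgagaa
POLR2J, bases 51 to 100: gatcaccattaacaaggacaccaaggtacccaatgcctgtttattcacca
POLR2J2, bases 51 to 100: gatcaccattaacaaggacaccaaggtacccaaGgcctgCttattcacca
POLR2J3, bases 51 to 100: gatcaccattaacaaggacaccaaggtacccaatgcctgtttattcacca

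Over whole transcripts, 36.7% of the 50-base windows of POLR2J, 94.8% of those of POLR2J2 and 50.7% of those of POLR2J3 occur in another gene as well. For POLR2M the share was 11.7%, and for the other 26 subunit genes at most 2.68%. In addition, 59.4% of the exon bases of POLR2J2 overlap the model UPK3BL. The low counts of POLR2J2 and POLR2J3 are uncertain as measures of these genes. The level of POLR2J is also uncertain, since reads from its shared part were left out.

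POLR2J had 56.8, 69.1 and 71.4 CPM in the single cells, against 48.5 and 55.3 CPM in 10 cells, 47.1 and 49.7 CPM in 100 cells, and 53.5 and 50.1 CPM in 1000 cells, with every single cell above the other libraries. POLR2J2 had 0, 0 and 1 count in the single cells, against 7 and 0 counts in 10 cells, 0 and 10 in 100 cells, and 1 and 5 in 1000 cells. POLR2J3 had 135, 0 and 0 counts in the single cells, against 35 and 0 counts in 10 cells, 0 and 13 in 100 cells, and 17 and 61 in 1000 cells. Both were present in some libraries and at 0 in others at every cell number but 1000, and a count of 0 allows up to 3 counts, for counting error only.

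The 5 subunits of all 3 enzymes overlapped between the single cells and the other libraries. POLR2E, a subunit of the jaw that grips downstream DNA, had 119, 108 and 150.3 CPM in the single cells, against 111 to 131 CPM (median 124) in the other libraries. POLR2F, a small subunit at the base of the clamp, had 44.7, 54.2 and 66.7 CPM in the single cells, against 35.5 to 45.7 CPM (median 43.3). Rep 2 and Rep 3 were above all 6 libraries for POLR2F, and Rep 3 alone for POLR2E. POLR2H had 38.2, 23.3 and 68.7 CPM in the single cells, against 31.4 to 41.6 CPM (median 38.6), with Rep 2 under and Rep 3 above the range. The zinc-binding subunits POLR2K and POLR2L join the assembly platform. POLR2K had 30.0, 20.1 and 20.6 CPM in the single cells, against 19.2 to 27.7 CPM (median 23.3), and POLR2L had 32.9, 46.9 and 51.5 CPM in the single cells, against 42.0 to 51.7 CPM (median 44.9). Single Cell Rep 1 was thus the highest library for POLR2K and the lowest for POLR2L.

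POLR3A encodes the largest subunit of Pol III. It had 62.9, 99.8 and 175 CPM in the single cells, against 123 and 97.7 CPM in 10 cells, 97.3 and 96.7 CPM in 100 cells, and 99.5 and 98.0 CPM in 1000 cells. The lowest and the highest library were both single cells, on either side of 6 libraries of which 5 lay between 96.7 and 99.5 CPM. POLR3B, the second-largest subunit, had 47.9, 33.2 and 53.7 CPM in the single cells, against 30.3 and 37.4 CPM in 10 cells, 39.3 and 43.6 CPM in 100 cells, and 41.8 and 43.6 CPM in 1000 cells. Its groups also overlapped, with Rep 1 and Rep 3 above the other libraries. POLR3K, the subunit for RNA cleavage and termination, was the highest gene of only Pol III per length. It had 74.4, 35.2 and 36.6 CPM in the single cells, against 55.0 and 45.5 CPM in 10 cells, 57.6 and 61.3 CPM in 100 cells, and 54.1 and 52.4 CPM in 1000 cells, so that Rep 1 was above and Rep 2 and Rep 3 under all other libraries.

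POLR3D and POLR3E encode the heterodimer of Pol III that takes part in initiation and termination. POLR3D had 64.5, 61.8 and 84.5 CPM in the single cells, against 84.3 to 119 CPM (median 92.1) in the other libraries, and Rep 3 lay just inside that range. POLR3E had 72.8, 75.3 and 119 CPM in the single cells, against 82.6 to 100.4 CPM (median 90.5). Rep 1 and Rep 2 were low for both partners.

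POLR3C, POLR3F and either POLR3G or its paralogue POLR3GL form the trimer that Pol III needs to open a promoter. POLR3C had 55.8, 41.8 and 53.0 CPM in the single cells, against 43.6 to 60.8 CPM (median 52.8), and POLR3F had 24.4, 39.8 and 31.7 CPM in the single cells, against 20.4 to 25.8 CPM (median 24.6). POLR3G is known as the form of stem cells and many dividing cells, and POLR3GL as the form present in most tissues. POLR3G had 27.9, 34.9 and 8.12 CPM in the single cells, against 27.6 and 25.3 CPM in 10 cells, 28.3 and 29.2 CPM in 100 cells, and 29.0 and 29.9 CPM in 1000 cells. POLR3GL had 9.94, 16.6 and 24.8 CPM in the single cells, against 14.0 and 13.9 CPM in 10 cells, 14.4 and 11.9 CPM in 100 cells, and 12.1 and 16.5 CPM in 1000 cells. Single Cell Rep 3 had the lowest POLR3G and the highest POLR3GL of the 9 libraries. Per length, the ratio of POLR3G to POLR3GL was 0.994, 0.747 and 0.116 in the single cells, against 0.642 to 0.872 in the 6 libraries of more cells.

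**Figure D3:**
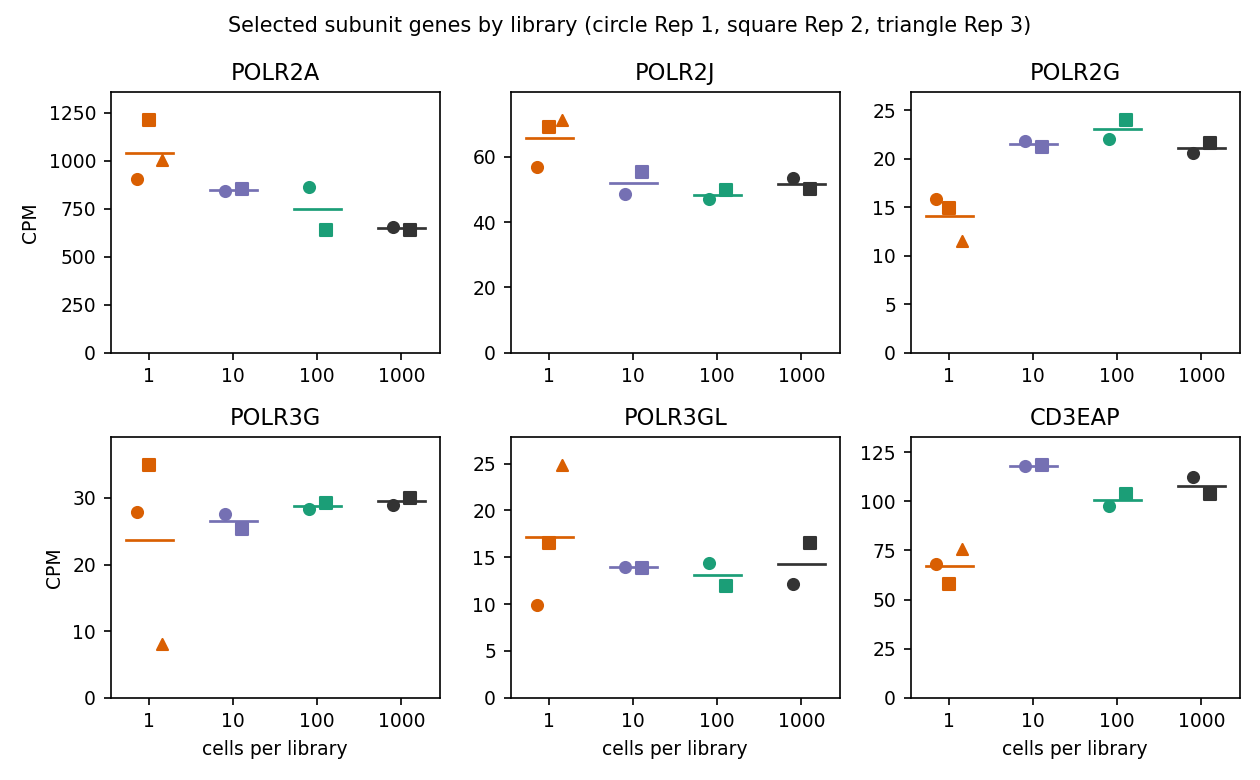
CPM (vertical axes, from 0) of 6 genes by cells per library (horizontal axes), with 1 point for each library and a line at the mean of each cell number. POLR2A and POLR2J lie above the other libraries in all 3 single cells, POLR2G and CD3EAP, a Pol I subunit, below them, and POLR3G at 8.12 CPM and POLR3GL at 24.8 CPM stand apart in Single Cell Rep 3.

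The main comparison asked whether the subunit genes were at another level in single cells than in the 6 libraries of 10, 100 and 1000 cells. Of the 29 genes tested, 1 was higher and 0 were lower at an adjusted p under 0.05 (edgeR's quasi-likelihood test, Benjamini-Hochberg over all 15603 genes tested). Over all genes, 6.67% passed, 2.22% higher and 4.45% lower, so the share of subunit genes was near the background. At an unadjusted p under 0.05, 8 subunit genes differed, against 24.5% of all genes. Of these, 5 had the higher mean in single cells (10.8% of all genes) and 3 the lower (13.8%). Without Single Cell Rep 1, Rep 2 or Rep 3, the number of subunit genes at an adjusted p under 0.05 was 8, 3 and 2 in the same test, while 17.8%, 19.8% and 15.0% of all genes passed. Without any one of the other 6 libraries it was 0, while 0% to 4.78% of all genes passed. The median log2 fold change of the 29 genes was -0.02, beside 0.01 over all genes tested, and 14 of them were above 0, against 51.2% of all genes. By enzyme the median log2 fold change was -0.08 for only Pol I, -0.06 for Pol I and Pol III, 0.36 for the 9 tested of only Pol II, 0.04 for all 3 enzymes and 0.06 for only Pol III. Over the 7 genes of only Pol II without the uncertain POLR2J2, POLR2J3 and POLR2M it was -0.12, so the sign for only Pol II turned with those genes.

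Means are given ± SD over the 3 single cells and over the 6 libraries of more cells. POLR2A was the gene that passed. It averaged 1039.7 ± 156 CPM in single cells, higher than the 748 ± 114 CPM of the libraries of more cells. Its log2 fold change was 0.47 ± 0.13 (standard error), and edgeR's adjusted p was 0.0485. It remained called without Single Cell Rep 1 (adjusted p = 0.0255) or Rep 3 (adjusted p = 0.0464), but not without Rep 2, where the log2 fold change was 0.35 (adjusted p = 0.0928 from edgeR). It was also lost without 10 Cell Rep 1 or Rep 2 (adjusted p = 0.0589 and 0.0556), 100 Cell Rep 1 or Rep 2 (0.0518 and 0.102) and 1000 Cell Rep 1 or Rep 2 (0.105 and 0.103), in a fit of all 9 libraries (0.110) and with no filter on low counts (0.0519), with log2 fold changes of 0.43 to 0.52. Without 100 Cell Rep 2, 1000 Cell Rep 1 or 1000 Cell Rep 2, or in the fit of all 9, no gene of any kind passed.

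**Figure D4:**
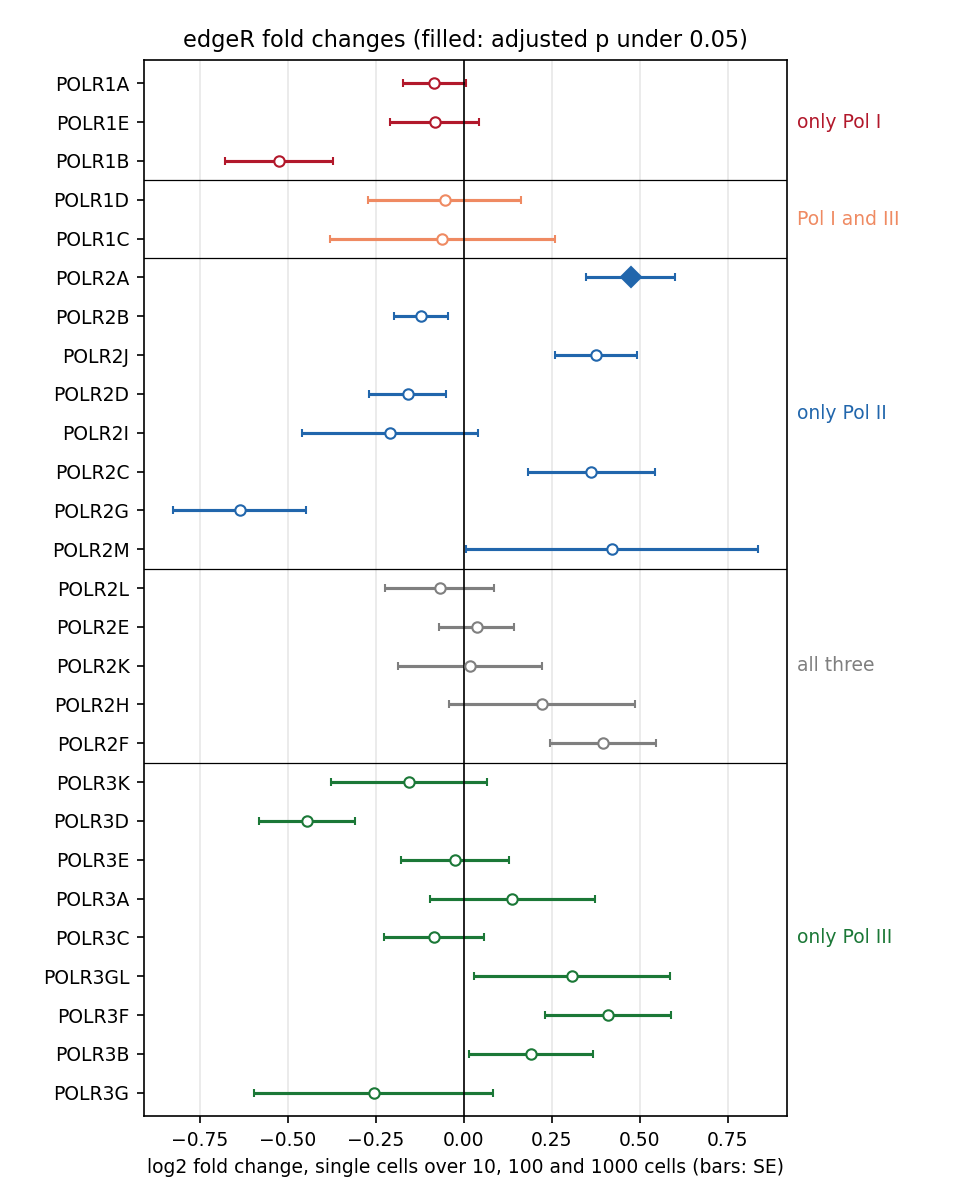
Log2 fold change of 27 subunit genes in single cells over the libraries of 10, 100 and 1000 cells (horizontal axis), with the standard error as bars and the genes grouped by enzyme. POLR2A, filled, is at 0.47 and passed the test, and the values of the others span -0.64 (POLR2G) to 0.42 (POLR2M). POLR2J3, at 1.10 with a standard error of 1.84, is not drawn.

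The next genes missed the threshold in the same test. POLR1B averaged 72.5 ± 21.4 CPM in single cells, against 104 ± 6.82 CPM, a log2 fold change of -0.53 (edgeR's adjusted p = 0.0632). POLR2G averaged 14.1 ± 2.25 CPM in single cells, against 21.9 ± 1.16 CPM, a log2 fold change of -0.64 (adjusted p = 0.0660). POLR3D averaged 70.3 ± 12.4 CPM in single cells, against 95.5 ± 12.1 CPM, a log2 fold change of -0.44 (adjusted p = 0.0719). These 3 genes belong to 3 different enzymes, and each had a lower mean in single cells. POLR2J averaged 65.8 ± 7.83 CPM in single cells, against 50.7 ± 3.08 CPM, a log2 fold change of 0.37 (adjusted p = 0.0732). For POLR2F and POLR3F the log2 fold changes were 0.40 and 0.41 (adjusted p = 0.126 and 0.185 from edgeR). DESeq2's Wald test on the same genes called 5 of the 29 subunit genes, POLR2A and POLR2J higher and POLR1B, POLR2G and POLR3D lower. It called 2595 genes in all, or 17.3% of the 14996 genes to which it gave a p-value. The groups did not overlap for 3 of the 29 genes, against 15% of all genes. POLR2A and POLR2J lay above (4.94% of all genes) and POLR2G below (10.1%).

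Against the 1000-cell libraries alone, 0 subunit genes passed for single cells, 10 cells or 100 cells, and 0% of all genes did in each comparison (edgeR, adjusted p under 0.05). For single cells, POLR2A had a difference of 0.68 ± 0.15 on the log2 scale (± standard error, edgeR's adjusted p = 0.187) and was the 1 subunit gene at an unadjusted p under 0.05, against 7.91% of all genes. For 10 cells, 5 subunit genes had an unadjusted p under 0.05, against 11.2% of all genes. They were POLR2A with 846 ± 8.92 CPM in 10 cells and 648 ± 11.3 CPM in 1000 cells (SD, n = 2 each, edgeR's adjusted p = 0.0758 at a log2 fold change of 0.39), POLR3E (0.19), POLR2K (-0.32), POLR3B (-0.33) and POLR2M (-0.71). For 100 cells there were 0, against 2.01% of all genes. DESeq2's Wald test called POLR2A in single cells (0.262% of all genes) and in 10 cells (1.27%), and 0 subunit genes in 100 cells (0.00641%). The groups did not overlap for 7 of 29 subunit genes in single cells (28.6% of all genes), 10 in 10 cells (44.5%) and 10 in 100 cells (33.2%). These comparisons share the 1000-cell libraries.

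The 100-cell libraries, which differed in the number of genes detected, were set against both neighbours. Of the 29 genes, 100 Cell Rep 1 was nearer to the 10-cell mean than to the 1000-cell mean for 13 (44.8%, against 47.7% of all genes), and 100 Cell Rep 2 for 8 (27.6%, against 28.2%). Both shares were near those of all genes. Without 100 Cell Rep 2, the comparison of 100 with 1000 cells called 11 subunit genes instead of 0, POLR2A, POLR3D and POLR3E higher and 8 lower, and 30.4% of all genes, with a lone library assumed to vary like the 1000-cell pair.

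Single cells were also set one by one against the range of the 6 libraries of more cells. Single Cell Rep 1 was above that range for 8 of 29 subunit genes and below it for 9, Rep 2 above for 8 and below for 10, and Rep 3 above for 14 and below for 9. Of all 16184 genes, 32.0%, 31.0% and 32.8% were above in the 3 cells and 37.1%, 37.4% and 40.2% below. Differences of more than 1 log2 unit from the mean of the 6 libraries were seen for 1, 1 and 4 subunit genes, among them in each cell POLR2J3. This was 3.45%, 3.45% and 13.8% of them, against 32.3%, 32.2% and 38.2% of all genes. The other 3 such genes in Single Cell Rep 3 were POLR3G (-1.79), POLR2I (-1.14) and POLR2M (1.21). A minimum of 10 CPM in 2 libraries kept 27 of the 29 subunit genes but 10448 genes in all. The shares thus set genes of unlike levels side by side, and genes of like level were not compared. Of the 10 genes of only Pol III, 6 were above the range in Rep 3 (among them POLR3A, POLR3B, POLR3E, POLR3F and POLR3GL) and 2 below (POLR3G and POLR3K), while in Rep 1 it was 2 above and 4 below.

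**Figure D5:**
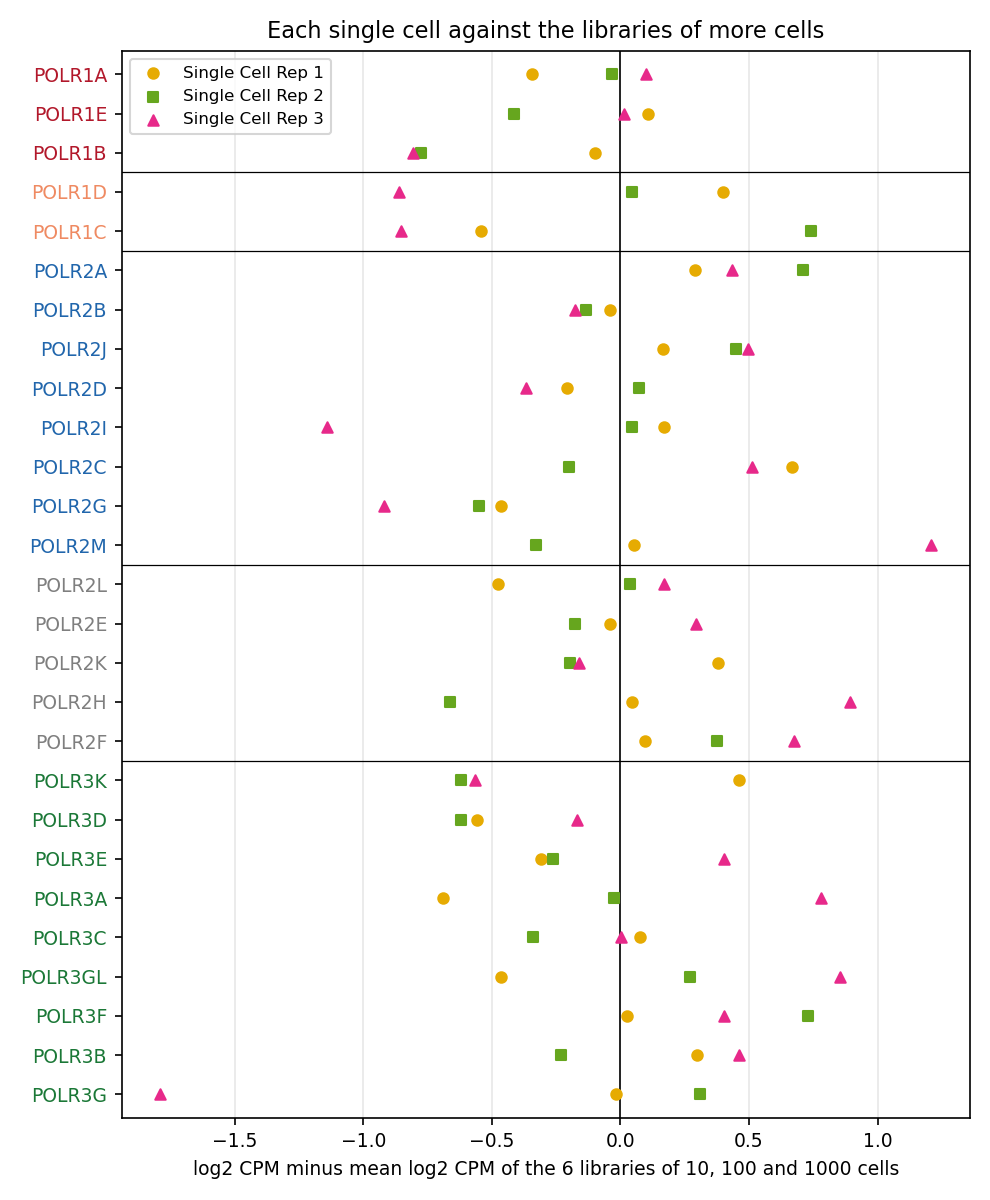
Log2 CPM of each single cell minus the mean log2 CPM of the 6 libraries of 10, 100 and 1000 cells (horizontal axis) for 27 subunit genes, grouped by enzyme, with 1 symbol for each cell. POLR2A and POLR2J lie to the right and POLR2G to the left in all 3 cells, and the farthest point is POLR3G in Single Cell Rep 3 at -1.79.

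The subunit genes varied less between replicates than the median gene. The median SD of log2 CPM was 0.361 among the 3 single cells (0.552 over all genes), 0.118 for libraries of 10 cells (0.177), 0.135 for those of 100 cells (0.160) and 0.0328 for those of 1000 cells (0.0725). The first SD is over 3 libraries and the others over 2, and the subunit genes lie at other levels than the median gene, so these are descriptions with no test. In single cells the median SD was 0.241 for only Pol II, 0.276 for only Pol I, 0.324 for all 3 enzymes, 0.434 for only Pol III and 0.747 for the 2 genes of Pol I and Pol III.

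Some subunits are listed under other symbols, and 4 of them were tested, with the mitochondrial polymerase gene POLRMT, in single cells against the libraries of more cells. CD3EAP, the Pol I subunit that pairs with the product of POLR1E, was lower in single cells. It had 68.3, 57.9 and 75.5 CPM in the single cells, against 118 and 118 CPM in 10 cells, 97.6 and 104 CPM in 100 cells, and 112 and 104 CPM in 1000 cells, and all 3 single cells were under the other libraries. Its log2 fold change was -0.70 ± 0.11 (standard error), and edgeR's adjusted p was 0.0176. The call was lost without 100 Cell Rep 2, 1000 Cell Rep 1 or 1000 Cell Rep 2 (adjusted p = 0.0607, 0.0620 and 0.0603) and in the fit of all 9 libraries (0.102). The Pol I subunit genes TWISTNB (-0.06) and ZNRD1 (0.01), the Pol III stalk gene CRCP (0.19) and POLRMT (0.20) had adjusted p-values of 0.318 to 0.985 from edgeR.

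The factors that work with the enzymes were put to the same test in single cells against the libraries of more cells, where 6.67% of all genes passed. Of 7 Pol I factors, 0 passed (1 at an unadjusted p under 0.05), with a median log2 fold change of -0.12. Of 28 general and elongation factors of Pol II, 0 were higher and 2 lower, with a median of -0.09. The lower genes were GTF2A1, a subunit of the initiation factor TFIIA, and SUPT4H1, a subunit of the elongation factor DSIF. GTF2A1 had 80.2, 71.6 and 66.4 CPM in the single cells, against 87.8 to 104 CPM in the other libraries (edgeR's adjusted p = 0.0396, log2 fold change -0.39). SUPT4H1 had 10.4, 9.29 and 6.32 CPM in the single cells, against 15.6 to 22.9 CPM (edgeR's adjusted p = 0.0286, log2 fold change -1.12). Of 16 Pol III factors, 1 was higher and 0 lower, with a median of 0.07. It was MAF1, the repressor of Pol III, with 76.2, 65.9 and 53.6 CPM in the single cells, against 41.2 to 51.3 CPM in the other libraries (edgeR's adjusted p = 0.0396, log2 fold change 0.53). Of 10 polymerase assembly factors, 0 were higher and 1 lower, with a median of -0.05. It was ZNHIT2, a partner of the R2TP assembly complex, with 4, 4 and 0 counts in the single cells, against 249 to 360 counts in the other libraries (adjusted p = 0.0131 from edgeR). The calls of GTF2A1 and MAF1 were lost without any one of the 6 libraries of more cells (adjusted p = 0.0654 to 0.0968), and that of MAF1 also without Single Cell Rep 1 (0.0532). SUPT4H1 was lost without either 100-cell or either 1000-cell library (0.0524 to 0.0807), and ZNHIT2 without 100 Cell Rep 2 or either 1000-cell library (0.0540 to 0.0569).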

How the data were processed

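Per the submitters' notes, quality control used FastQC 0.11.9, trimming Trim Galore 0.6.7, alignment to hg38 HISAT2 2.2.1, and counting over exons featureCounts of Subread 2.0.6 set to the reverse strand. Single reads were counted, and reads that mapped to several places or overlapped several gene models were left out. The annotation release is not given in the sources used here. The deposited values are raw counts, 42842970 to 61645865 per library, and replicates were not pooled.

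Counts were analysed in R 4.3.3 with edgeR 4.0.16 (TMM, filterByExpr, quasi-likelihood test fitted to the compared libraries alone, Benjamini-Hochberg over all genes tested, adjusted p under 0.05). CPM used TMM library sizes, log2 CPM a prior count of 2, and CPM per kilobase the exon length in the files. Alternatives were DESeq2 1.42.0, RLE normalization, other filters, 1 fit of all 9 libraries, thinning, a replicate block and leaving out each library. The test was checked on simulated counts with the same dispersion for every gene and library. That check does not cover the larger spread among single cells. Gene overlap came from the files' coordinates, and sequences and shared 50-base windows from GENCODE 29 transcripts.

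The members, the gene lists and the comparisons were chosen with earlier results of these data known. Subunit genes were named except 1, which is in the counts and medians and is not reported here. Values for every library were given for the subunit genes that passed the test or whose groups did not overlap, the largest and second-largest subunits, the paralogues, the platform that Pol I and Pol III share, the highest per length, genes with 0 counts and CD3EAP, and other genes by single cell and by the range of the other libraries.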

Additional observations from a re-analysis of the deposited data

Results flagged for a closer look

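Among the 6 libraries of 10, 100 and 1000 cells, 3 of the 29 subunit genes tested had 1 library far from the others, all 3 of them genes of only Pol III. Of all 16184 genes, 10.7% had such a library. Chance alone sets one apart in about 1 in 20 groups of like samples, and these 6 libraries differ in their number of cells. POLR3A was at 123 CPM in 10 Cell Rep 1, with the other 5 libraries at 96.7 to 99.5 CPM. POLR3D was at 119 CPM in 100 Cell Rep 1, with the others at 84.3 to 94.7 CPM. POLR3F was at 20.4 CPM in 10 Cell Rep 2, with the others at 23.6 to 25.8 CPM.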

How the results depend on the processing

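For single cells against 10, 100 and 1000 cells, 1 subunit gene passed. DESeq2 called 5, beside 17.3% of the 14996 genes to which it gave a p-value. With no filter on low counts 0 passed (smallest adjusted p 0.0519 from edgeR), beside 3.31% of all genes. In 1 fit of all 9 libraries 0 passed (0.110 from edgeR), beside 0% of all genes. With 1 library left out the count ranged from 0 to 8: it was 8, 3 and 2 without Single Cell Rep 1, Rep 2 and Rep 3, and 0 without any one of the other 6 libraries. For single cells against 1000 cells, where 0 passed, DESeq2 called 1, and leaving out a library gave 0 throughout. For 10 against 1000 cells, where 0 passed, DESeq2, no filter, a minimum of 10 CPM in 2 libraries and the replicate block each called 1, POLR2A in every case, and leaving out a library gave 1 to 12, the highest without 10 Cell Rep 2, where 29.5% of all genes passed. For 100 against 1000 cells, where 0 passed, leaving out a library gave 0 to 11. The causes were not tested. A pair with 1 library left out has no spread of its own in the fit.

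Same-numbered libraries did not deviate together (correlations of -0.038 to 0.025), so the numbers do not pair them. With the replicate block, single cells against the other libraries gave 1 subunit gene, POLR3D in place of POLR2A (adjusted p = 0.0641 from edgeR), and 0 for single cells and 100 cells against 1000 cells. Over all genes, DESeq2 called 2595 genes in single cells against the libraries of more cells where edgeR called 1041, no filter left 682, a minimum of 10 CPM 576 and the replicate block 2077. The fold changes of 34 genes in single cells against the libraries of more cells were followed over the alternatives. They were the tested subunit genes with CD3EAP, GTF2A1, MAF1, SUPT4H1 and ZNHIT2. Counted for each gene under each alternative, a call was lost in 41 cases, gained in 16 and unchanged in 484, and 0 changed sign in a call. RLE normalization and thinning to the smallest library kept the counts of subunit genes called. The depth gave 225 counts or more for all subunit genes but POLR2J2 and POLR2J3, and for these 0 counts set no level.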
